A study of Homo sapiens with 13 samples.

Results

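The genes described here are 31 genes of cholesterol and fatty acid synthesis, with the regulators that sense sterols, among 28939 features tested on the array. A gene was included where the gene symbol that the array files give to a probe is on the list, with MSMO1 also written SC4MOL and SC5D also written SC5DL, and the genes are ordered along the pathway. They were represented by 38 probes, and the brightest probe of each gene gave its value. All 31 were above local background in the treated and in the control RNA on all 13 arrays.

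The cells were HEK293T, derived from human embryonic kidney, and each Agilent 2-colour array carried 1 treated RNA and 1 control RNA in opposite dyes. For UNC0638, a drug that blocks the histone H3 lysine 9 methyltransferases G9a and GLP, cells received 1 µM for 48 h and the control was the solvent DMSO (5 biological replicates, 7 arrays). The knockdowns lasted 72 h with a control siRNA on the other channel, and targeted either WIZ, a zinc finger partner of the enzymes (2 biological replicates, 4 arrays), or G9a itself (2 biological replicates, 2 arrays). Both WIZ siRNA replicates and UNC0638 replicates 1 and 2 were run in both dye orientations. In UNC0638 replicates 3 to 5 and in both G9a siRNA replicates the treated sample was in Cy5 only. All cells grew in medium with 10% serum, knockdown cells and their controls both received a transfection lipid, and the drug was read at an earlier time than the siRNAs. Shared use of 1 control RNA by both knockdowns is not stated in the labels. Each value is a log2 ratio, treated over control, averaged over a dye-swapped pair so that a biological replicate counts as 1.

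Cholesterol and isoprenoids are built from acetyl-CoA through the mevalonate pathway, and squalene is the point at which the route turns to sterols. When membrane sterol is low, SCAP carries the SREBP transcription factors, products of SREBF1 and SREBF2, out of the endoplasmic reticulum for activation, and the INSIG proteins hold SCAP back when sterol is high. Active SREBPs bind sterol regulatory elements, usually with the factor NF-Y nearby, and raise transcription of sterol and fatty acid enzymes together, in kidney-derived lines as in most cell types.

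The arrays differed in signal and in the spread of their ratios. The median signal was 146 to 308 for Cy3 (background 28 to 30) and 120 to 468 for Cy5 (background 45 to 68), and 47.8% to 92.7% of probes per channel were above background. The log2 ratios of all features had an SD of 0.168 to 0.171 in UNC0638 replicates 1 and 2 and under WIZ siRNA, 0.27 to 0.505 in UNC0638 replicates 3 to 5 and 0.487 to 0.614 under G9a siRNA. The lowest SDs are of replicates averaged over a dye-swapped pair and the others of single arrays. Each SD holds treatment effects as well as noise. The pixel noise of the Cy3 background, taken at its lowest per array, split the arrays into 2 sets, called set 1 (UNC0638 replicates 1 and 2 and WIZ siRNA) and set 2 (UNC0638 replicates 3 to 5 and G9a siRNA), so that for each siRNA the set cannot be told apart from the treatment. WIZ RNA was left at 23.1% of its control under WIZ siRNA, and G9a RNA (gene EHMT2) at 31.6% under G9a siRNA. In the control RNA, 8 of 8 markers of the HEK293T line were above background on all arrays, against 1 of 6 hepatocyte, 1 of 5 adipocyte, 2 of 4 leukocyte and 2 of 5 endothelial and fibroblast markers, and the adipocyte hormone LEP was on none. Under G9a siRNA 2 of the 8 HEK293T (median -0.21), 1 of 6 hepatocyte and 1 of 4 leukocyte markers were called lower. Called higher were 2 of the 4 adipocyte markers tested (median 0.191) and 1 of 5 endothelial and fibroblast markers. Over all features 18.2% were called lower and 15% higher, and the part of the markers in the member values was not tested. In bulk RNA, fewer cells with a transcript and less transcript per cell cannot be told apart.

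The promoters show what the members share in sequence, and those of 7 members whose values are given below were chosen to show it. RefSeq windows of the GRCh38.p14 assembly, from 250 bases before to 50 after a transcription start, were matched by symbol for 27 of 31 members (37 windows). The capitals mark the NF-Y box CCAAT or its reverse ATTGG, the E-box CACGTG and the sterol regulatory element TCACNCCAC, in stretches upstream of the start, written 5′ to 3′ on the gene's strand. MSMO1 is at chr4:165327472-165327651 on the plus strand, IDI1 at chr10:1048957-1049030 on the minus strand, SC5D at chr11:121292628-121292731 on the plus strand, STARD4 at chr5:111512649-111512708 on the minus strand, MVD at chr16:88663160-88663262 on the minus strand, INSIG1 at chr7:155297696-155297840 on the plus strand and SREBF2 at chr22:41832960-41833015 on the plus strand. IDI1 has 3 windows and SC5D has 2, of which 1 each is shown, and in IDI1 a CCAAT and an ATTGG overlap.
MSMO1: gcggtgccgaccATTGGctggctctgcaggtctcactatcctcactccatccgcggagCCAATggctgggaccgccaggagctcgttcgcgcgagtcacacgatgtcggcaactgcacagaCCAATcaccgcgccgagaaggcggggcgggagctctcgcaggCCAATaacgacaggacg
IDI1: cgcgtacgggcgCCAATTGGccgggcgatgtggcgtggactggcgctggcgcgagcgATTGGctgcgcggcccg
SC5D: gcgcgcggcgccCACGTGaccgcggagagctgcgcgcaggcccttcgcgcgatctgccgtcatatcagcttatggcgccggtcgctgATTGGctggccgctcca
STARD4: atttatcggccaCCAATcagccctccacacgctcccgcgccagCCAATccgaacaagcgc
MVD: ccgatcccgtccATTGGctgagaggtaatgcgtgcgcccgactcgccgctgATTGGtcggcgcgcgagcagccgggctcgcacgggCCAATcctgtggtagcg
INSIG1: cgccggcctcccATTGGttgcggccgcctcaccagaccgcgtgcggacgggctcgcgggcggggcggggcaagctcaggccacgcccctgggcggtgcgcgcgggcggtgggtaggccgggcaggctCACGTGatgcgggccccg
SREBF2: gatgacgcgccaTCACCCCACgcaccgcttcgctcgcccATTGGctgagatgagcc

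Both strands of every window were searched. The NF-Y box stood in 24 of the 37 member windows (64.9%), against 12155 of 35116 windows of all genes (34.6%). The Sp1 box GGGCGG stood in 33 (89.2%) against 15786 (45%), and the E-box in 5 (13.5%) against 2548 (7.26%). The strict sterol regulatory element stood in 1 member window, that of SREBF2 (2.7%), against 396 of all windows (1.13%). A match of letters describes the window and is not evidence of binding, and windows of 1 gene can overlap.

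The members called under G9a siRNA went in both directions, whereas those called under UNC0638 all rose and none was called under WIZ siRNA. Under G9a siRNA, 7 members rose and 9 fell by limma's moderated test with Benjamini-Hochberg adjustment over all features (adjusted p below 0.05, used as the threshold throughout), which is 51.6% of the members, where 33.2% of all features tested were called (15% higher and 18.2% lower). In a fit limited to features above background on every array, as all members were, 52.9% of features were called. The same 16 members were called there, a share near that of the features. The members that rose were HMGCS1, IDI1, SQLE, MSMO1, SC5D, SCD and FADS1, and those that fell were MVD, LSS, TM7SF2, EBP, DHCR7, SREBF1, SREBF2, SCAP and FADS2. With G9a siRNA replicate 2 left out, 0 of 31 members and 0 of all features were called by limma (11 members had an unadjusted p below 0.05), and without replicate 1, 13 members were called, with the lone sample assumed to vary like the other groups. The median over the members was -0.109, beside -0.00805 over all features, and it was 0.00755 in a fit with a term for the dye.

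Under UNC0638, 3 members rose and 0 fell, where 1.75% of features were called higher, 1.9% lower and 3.65% in all. They were IDI1, SC5D and STARD4. Under WIZ siRNA, 0 members were called by limma (6 had an unadjusted p below 0.05), where 0.615% of features were called, 0.0795% higher and 0.536% lower. Of the 31 members, 24 had a positive mean under WIZ siRNA, with a median of 0.158 beside 0.0121 over all features. The main fit uses 1 estimate of a feature's spread for all treatments. In a fit of the 2 WIZ siRNA replicates alone, whose spread rests on those 2, 17 members were called higher and 0 lower. There 23.7% of all features were called, a share not split by direction. In a fit with a dye term 1 member was called, where 3.34% of all features were called.

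**Figure D1:**
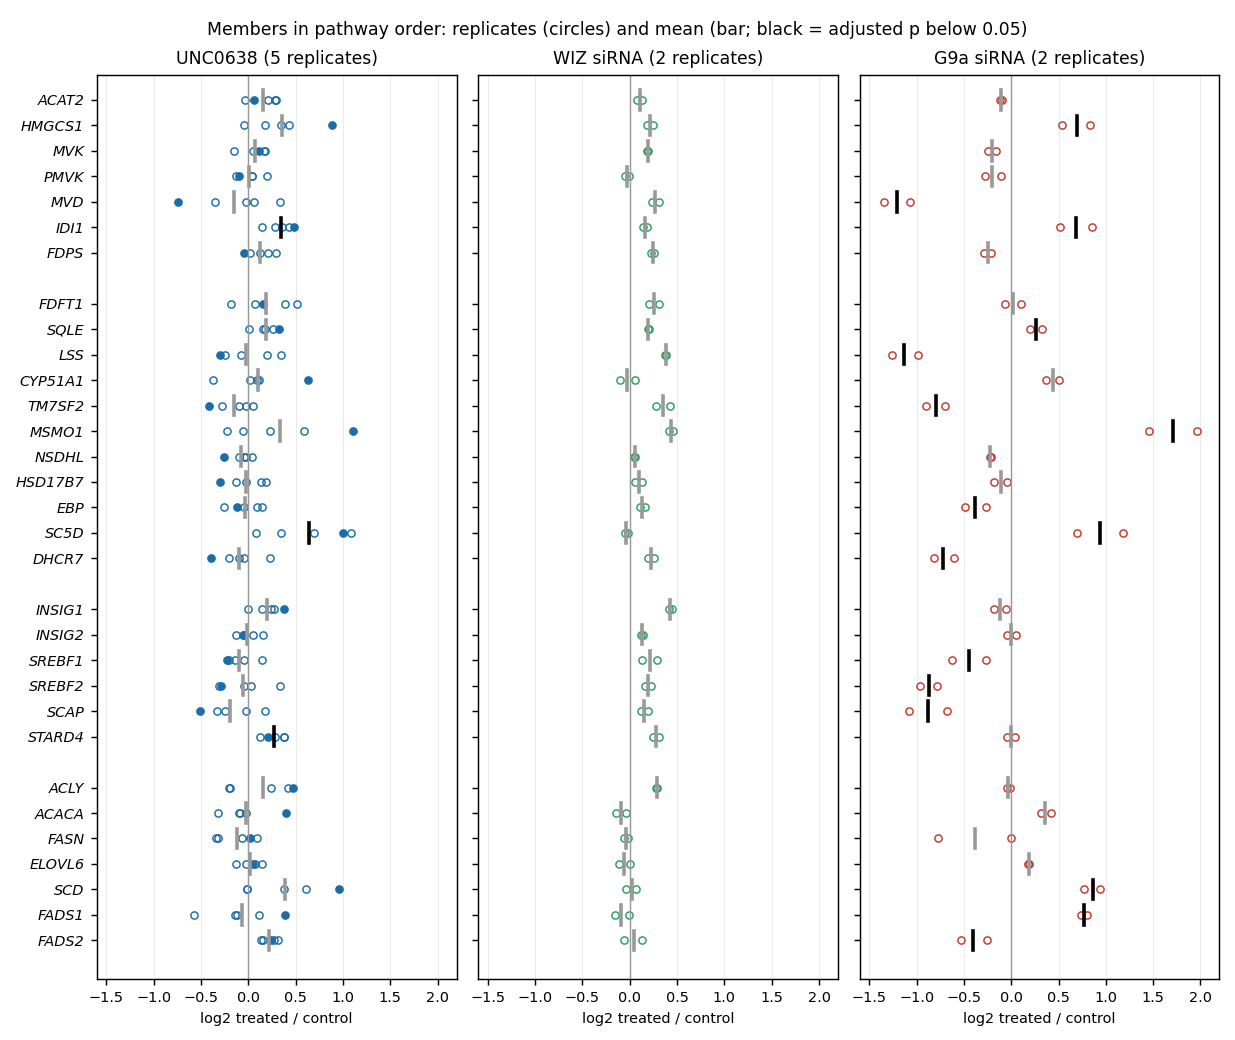
Log2 ratio of treated over control RNA for the 31 members in pathway order under each treatment. Circles are biological replicates (filled blue, UNC0638 replicate 3), bars are means and black bars mark limma adjusted p below 0.05. Under G9a siRNA the members spread from MVD and LSS at -0.99 or below to MSMO1 at 1.46 or above, whereas under WIZ siRNA all means lie between -0.09 and 0.44.

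Array values are given below in a fixed order. Of the 4 WIZ siRNA arrays, the values of replicates 1 and 2 with the treated RNA in Cy3 come first and those with it in Cy5 follow. Of the 7 UNC0638 arrays, the lowest, the median and the highest are given, or the 5 replicates in order. Probe positions are those of the files, on build 37.1.

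The mevalonate steps held both directions of change under G9a siRNA. Of 7 genes from acetyl-CoA to farnesyl diphosphate, HMGCS1 and IDI1 rose, MVD fell and 4 were not called, with a median of -0.196. Under UNC0638, 1 of the 7 rose (IDI1), and 6 of 7 means were positive with a median of 0.116. The first enzyme, the cytosolic thiolase ACAT2, lay at -0.10 and -0.12 under G9a siRNA, at 0.03, 0.07, 0.13 and 0.19 on the WIZ siRNA arrays and at -0.19, 0.12 and 0.47 on the UNC0638 arrays. Its probe (chr6:160199814-160199873) also carries the symbol of TCP1, and whether TCP1 RNA adds to its values was not tested. The G9a siRNA mean of ACAT2 was -0.11 (95% interval -0.31 to 0.09, adjusted p = 0.399).

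HMGCS1, the synthase that makes HMG-CoA, had its probe at chr5:43290117-43290176. Its values were 0.54 and 0.83 under G9a siRNA, 0.39, 0.26, -0.03 and 0.21 on the WIZ siRNA arrays and 0.35, 0.18, 0.88, 0.43 and -0.05 in UNC0638 replicates 1 to 5. The G9a siRNA replicates lay above all UNC0638 replicates except the third, and replicate 5 of UNC0638 was the lowest of all. HMGCS1 rose 1.61-fold under G9a siRNA (log2 0.69, SE 0.179, adjusted p = 0.0168), while its UNC0638 mean of 0.36 (SE 0.113, adjusted p = 0.127) was not called. The kinases MVK and PMVK, which phosphorylate mevalonate in turn, had G9a siRNA means of -0.20 each with adjusted p of 0.102 and 0.129. Under UNC0638 and WIZ siRNA their means lay between -0.03 and 0.19, none called.

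MVD, the decarboxylase that completes isopentenyl diphosphate, was the member with the largest fall under G9a siRNA. It lay at -1.07 and -1.35 under G9a siRNA, at 0.88, 0.55, -0.26 and -0.08 on the WIZ siRNA arrays and at 0.33, -0.03, -0.74, 0.06 and -0.35 in UNC0638 replicates 1 to 5. Both G9a siRNA replicates were below every other replicate, and the WIZ siRNA arrays took opposite signs in the 2 dye orientations. MVD fell to 43.2% of control (log2 -1.21, SE 0.207, adjusted p = 0.00378). IDI1, the isomerase that follows it, had its probe at chr10:1086619-1086678 and lay at 0.51 and 0.85 under G9a siRNA, at 0.12, 0.16, 0.16 and 0.20 on the WIZ siRNA arrays and at 0.28, 0.14, 0.48, 0.43 and 0.36 in UNC0638 replicates 1 to 5. Every replicate and every WIZ siRNA array was positive for IDI1, and the G9a siRNA replicates lay above all others without overlap. IDI1 rose 1.6-fold under G9a siRNA (log2 0.68, SE 0.104, adjusted p = 0.0031) and 1.27-fold under UNC0638 (log2 0.34, SE 0.0656, adjusted p = 0.0223).

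FDPS, which joins the isoprenoid units to farnesyl diphosphate, lay at -0.21 and -0.29 under G9a siRNA, at 0.49, 0.36, -0.05 and 0.17 on the WIZ siRNA arrays and at -0.05, 0.12 and 0.34 on the UNC0638 arrays. Its G9a siRNA replicates were lower than all other arrays, with a mean of -0.25 (SE 0.0891, adjusted p = 0.0575) that missed the threshold. The probe of FDPS (chr1:155290269-155290328) also carries the symbol C1orf104.

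The sterol steps after squalene held the largest rise and 4 of the 9 falls under G9a siRNA. Of 11 genes, SQLE, MSMO1 and SC5D rose under G9a siRNA, LSS, TM7SF2, EBP and DHCR7 fell, and 4 were not called, with a median of -0.108. Under UNC0638, 1 of the 11 rose (SC5D), and under WIZ siRNA 9 of 11 means were positive with a median of 0.195 and none called. FDFT1, the squalene synthase, lay at -0.07 and 0.10 under G9a siRNA, at 0.56, 0.64, -0.17 and -0.02 on the WIZ siRNA arrays and at -0.34, 0.15 and 0.51 on the UNC0638 arrays. These ranges overlap, and the G9a siRNA mean was 0.02 (95% interval -0.31 to 0.34).

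SQLE, the squalene epoxidase, lay at 0.20 and 0.33 under G9a siRNA, at 0.01, 0.05, 0.37 and 0.34 on the WIZ siRNA arrays and at -0.04, 0.18 and 0.32 on the UNC0638 arrays. The treatments overlapped, with most arrays slightly positive. SQLE was called under G9a siRNA at 1.2-fold (log2 0.26, SE 0.0846, adjusted p = 0.0388), a call that held in 3 of 10 other settings, in which the adjusted p and those of the leave-one-out fits ranged from 0.0256 to 0.791, and the value turned to -0.03 after a GC trend was removed.

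LSS, which closes squalene epoxide to lanosterol, had its brightest probe at chr21:47609299-47609358. It lay at -0.99 and -1.26 under G9a siRNA, at 1.03, 0.77, -0.26 and -0.02 on the WIZ siRNA arrays and at 0.34, -0.25, -0.30, 0.20 and -0.08 in UNC0638 replicates 1 to 5. The G9a siRNA replicates were below all others, and the WIZ siRNA arrays again took opposite signs in the 2 dye orientations. LSS fell to 45.8% of control under G9a siRNA (log2 -1.13, SE 0.149, adjusted p = 0.0029), whereas its second probe gave a mean of -0.24. CYP51A1, the lanosterol demethylase, had means of 0.44 under G9a siRNA (adjusted p = 0.0897), 0.10 under UNC0638 and -0.03 under WIZ siRNA.

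TM7SF2, a sterol reductase, had its probe at chr11:64880991-64881050. It lay at -0.70 and -0.90 under G9a siRNA, at 0.86, 0.86, -0.30 and -0.02 on the WIZ siRNA arrays and at -0.42, -0.10 and 0.21 on the UNC0638 arrays. The G9a siRNA arrays were the lowest, and TM7SF2 fell to 57.4% of control (log2 -0.80, SE 0.115, adjusted p = 0.00292). With the dye term its mean was -0.50 (adjusted p = 0.0517; over all settings and leave-one-out fits the adjusted p ranged from 4.67e-05 to 0.106).

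MSMO1, the methylsterol oxidase, rose more than any other member. Its probe at chr4:166263190-166263249 gave 1.46 and 1.96 under G9a siRNA, 0.60, 0.75, 0.22 and 0.17 on the WIZ siRNA arrays and 0.23, -0.06, 1.11, 0.59 and -0.23 in UNC0638 replicates 1 to 5. The G9a siRNA replicates lay above all others, UNC0638 replicate 3 came next, and the UNC0638 replicates spread over both signs. MSMO1 rose 3.28-fold under G9a siRNA (log2 1.71, SE 0.268, adjusted p = 0.00324). Its means of 0.33 under UNC0638 (SE 0.169, adjusted p = 0.301) and 0.44 under WIZ siRNA (SE 0.268, adjusted p = 0.848) were not called. NSDHL and HSD17B7, the dehydrogenase and ketoreductase that work with MSMO1 in removing methyl groups, had G9a siRNA means of -0.22 (adjusted p = 0.0638) and -0.11 (adjusted p = 0.511), and no call in any treatment.

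EBP, a sterol isomerase on the X chromosome, had its probe at chrX:48386942-48387001. It lay at -0.27 and -0.49 under G9a siRNA, at 0.21, 0.25, 0.01 and 0.06 on the WIZ siRNA arrays and at -0.26, -0.11 and 0.28 on the UNC0638 arrays. The G9a siRNA arrays were the lowest, by little, and EBP fell to 76.8% of control (log2 -0.38, SE 0.102, adjusted p = 0.0191). After removal of the GC trend the mean was -0.03 (adjusted p = 0.781; range over settings and leave-one-out fits 0.0109 to 0.781).

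SC5D, the sterol desaturase near the end of the route, was called in 2 treatments. Its probe at chr11:121183280-121183339 gave 0.69 and 1.18 under G9a siRNA, 0.08, 0.10, -0.13 and -0.21 on the WIZ siRNA arrays and 0.35, 0.08, 1.00, 0.69 and 1.08 in UNC0638 replicates 1 to 5. UNC0638 replicates 3 to 5 overlapped with the G9a siRNA replicates, and UNC0638 replicates 1 and 2 and the WIZ siRNA arrays lay below them. SC5D rose 1.91-fold under G9a siRNA (log2 0.94, SE 0.222, adjusted p = 0.0114) and 1.55-fold under UNC0638 (log2 0.64, SE 0.14, adjusted p = 0.0395). DHCR7, the final reductase, had its probe at chr11:71145514-71145573 and lay at -0.61 and -0.82 under G9a siRNA, at 0.17, 0.20, 0.20 and 0.32 on the WIZ siRNA arrays and at -0.39, -0.05 and 0.46 on the UNC0638 arrays. The WIZ siRNA arrays were all above 0 and the G9a siRNA arrays below all others, and DHCR7 fell to 60.8% of control under G9a siRNA (log2 -0.72, SE 0.126, adjusted p = 0.00401).

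The regulators of SREBP fell or were not called under G9a siRNA. Of 6 genes, SREBF1, SREBF2 and SCAP fell and none rose, with a median of -0.288, whereas under WIZ siRNA all 6 means were positive with a median of 0.2 and none called. INSIG1, an anchor of SCAP, lay at -0.06 and -0.18 under G9a siRNA, at 0.04, -0.01, 0.85 and 0.83 on the WIZ siRNA arrays and at 0.00, 0.25 and 0.38 on the UNC0638 arrays. Its WIZ siRNA values were near 0 with the treated RNA in Cy3 and high with it in Cy5. The WIZ siRNA mean of INSIG1 was 0.43 (SE 0.0919, adjusted p = 0.101). The same value was called in the limma fit with a dye term (SE 0.106, adjusted p = 0.0451), in which arrays and not replicates are the units. INSIG2, its relative, had means between -0.01 and 0.13 in the 3 treatments, while its dimmer probe gave 0.68 under G9a siRNA.

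SREBF1, the gene of the SREBP that favours fatty acid synthesis, had its brightest probe at chr17:17715419-17715478. It lay at -0.27 and -0.63 under G9a siRNA, at -0.10, 0.01, 0.36 and 0.56 on the WIZ siRNA arrays and at -0.23, -0.10 and 0.16 on the UNC0638 arrays. The G9a siRNA arrays were the lowest, and SREBF1 fell to 73.1% of control (log2 -0.45, SE 0.112, adjusted p = 0.0139), with -0.60 from its second probe. SREBF2, the gene of the SREBP that favours sterol synthesis, had its probe at chr22:42302199-42302258 and lay at -0.79 and -0.96 under G9a siRNA, at 0.91, 0.83, -0.59 and -0.39 on the WIZ siRNA arrays and at 0.33, -0.05, -0.29, 0.03 and -0.31 in UNC0638 replicates 1 to 5. The G9a siRNA replicates were below every other array, and the WIZ siRNA values changed sign with the dye. SREBF2 fell to 54.5% of control under G9a siRNA (log2 -0.87, SE 0.139, adjusted p = 0.00329), a value that was -0.43 with an adjusted p of 0.134 in the fit with a dye term (range over settings and leave-one-out fits 2.02e-05 to 0.134).

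SCAP, the escort of the SREBPs, had its probe at chr3:47455474-47455533. It lay at -0.68 and -1.08 under G9a siRNA, at 1.20, 0.84, -0.83 and -0.60 on the WIZ siRNA arrays and at 0.18, -0.25, -0.51, -0.02 and -0.33 in UNC0638 replicates 1 to 5. The WIZ siRNA arrays with treated RNA in Cy5 overlapped with the G9a siRNA arrays, which were also in Cy5. SCAP fell to 54.2% of control under G9a siRNA (log2 -0.88, SE 0.155, adjusted p = 0.00404), and with the dye term the value was -0.41 with an adjusted p of 0.344 (range over settings and leave-one-out fits 3.99e-05 to 0.344). STARD4, a cytosolic sterol carrier, had its probe at chr5:110834688-110834747 and lay at -0.04 and 0.04 under G9a siRNA, at -0.14, -0.11, 0.64 and 0.72 on the WIZ siRNA arrays and at 0.38, 0.28, 0.21, 0.12 and 0.38 in UNC0638 replicates 1 to 5. All 5 UNC0638 replicates were above both G9a siRNA replicates, and STARD4 rose 1.21-fold under UNC0638 (log2 0.27, SE 0.0515, adjusted p = 0.0197). Its G9a siRNA mean was 0.00 (95% interval -0.19 to 0.18).

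Of the 7 genes of fatty acid synthesis and desaturation, SCD and FADS1 rose and FADS2 fell under G9a siRNA, with a median of 0.189. None of the 7 was called under UNC0638 or WIZ siRNA. ACLY, which makes cytosolic acetyl-CoA from citrate, lay at -0.01 and -0.04 under G9a siRNA, at 0.96, 0.94, -0.39 and -0.37 on the WIZ siRNA arrays and at -0.26, 0.19 and 0.47 on the UNC0638 arrays. The G9a siRNA arrays lay inside the range of the others, and the WIZ siRNA values changed sign with the dye. ACACA, the carboxylase that makes malonyl-CoA, had a G9a siRNA mean of 0.36 (SE 0.138, adjusted p = 0.0716), and its second probe gave 0.14 there and 0.28 under UNC0638, where the main probe gave -0.03. FASN, the fatty acid synthase, lay at 0.00 and -0.77 under G9a siRNA, so that its mean of -0.38 (adjusted p = 0.11) rested on replicate 2. ELOVL6, an elongase of long-chain fatty acids, had means of 0.02 with UNC0638, -0.06 with WIZ siRNA and 0.19 with G9a siRNA, where its second probe gave -0.26, -0.24 and 0.56.

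SCD, the desaturase that makes oleoyl-CoA from stearoyl-CoA, had its probe at chr10:102123917-102123976. It lay at 0.77 and 0.94 under G9a siRNA, at 0.22, 0.12, -0.31 and 0.02 on the WIZ siRNA arrays and at 0.38, -0.01, 0.96, 0.61 and -0.01 in UNC0638 replicates 1 to 5. UNC0638 replicate 3 overlapped with the G9a siRNA replicates, and replicates 2 and 5 were at the control level. SCD rose 1.81-fold under G9a siRNA (log2 0.86, SE 0.204, adjusted p = 0.0115), and its UNC0638 mean of 0.39 (SE 0.129, adjusted p = 0.144) was not called.

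FADS1 and FADS2, neighbouring genes whose desaturases act in turn on polyunsaturated fatty acids, moved in opposite directions under G9a siRNA. FADS1 (probe at chr11:61567126-61567185) lay at 0.74 and 0.80 under G9a siRNA, at -0.43, -0.25, 0.10 and 0.24 on the WIZ siRNA arrays and at 0.11, -0.14, 0.39, -0.12 and -0.57 in UNC0638 replicates 1 to 5. FADS2 (probe at chr11:61634754-61634813) lay at -0.26 and -0.53 under G9a siRNA, at -0.16, 0.02, 0.04 and 0.25 on the WIZ siRNA arrays and at 0.27, 0.13, 0.24, 0.15 and 0.31 in UNC0638 replicates 1 to 5. For each gene the G9a siRNA replicates lay outside the range of all others, on opposite sides, and all UNC0638 arrays were positive for FADS2. FADS1 rose 1.7-fold (log2 0.77, SE 0.177, adjusted p = 0.0102) and FADS2 fell to 76% of control (log2 -0.40, SE 0.0887, adjusted p = 0.00909) under G9a siRNA. With the dye term FADS1 lay at 0.57 with an adjusted p of 0.074 (range over settings and leave-one-out fits 5.33e-05 to 0.146).

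**Figure D2:**
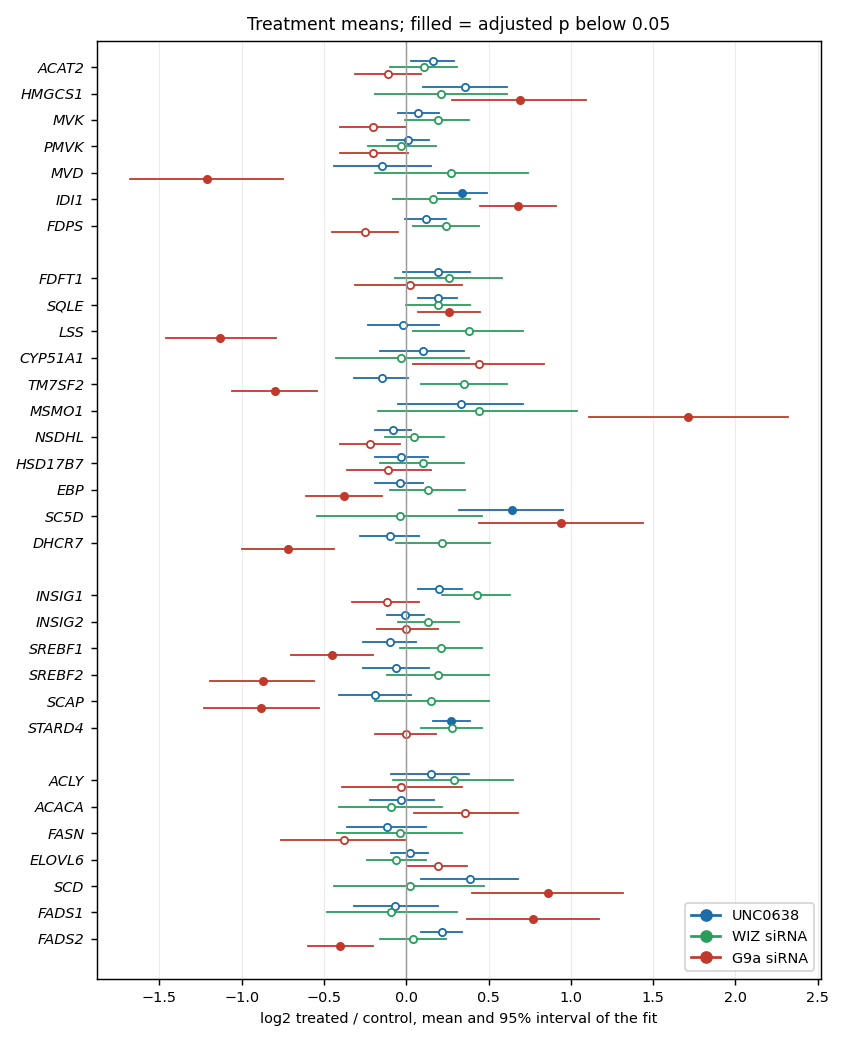
Mean log2 ratio of treated over control RNA for the 31 members in pathway order, 1 set of symbols per treatment. Bars are 95% intervals of the limma fit and filled symbols have an adjusted p below 0.05. G9a siRNA gives the widest spread, from MVD at -1.21 to MSMO1 at 1.71, and only IDI1, SC5D and STARD4 are filled for UNC0638.

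The differences between treatments were tested as contrasts in the same fit. Those against UNC0638 hold the gap between 48 h and 72 h and the difference in solvent and siRNA controls. Between G9a siRNA and UNC0638, 2 members were higher under G9a siRNA (MSMO1 and FADS1) and 7 lower (MVD, LSS, TM7SF2, DHCR7, SREBF2, SCAP and FADS2), where 12.6% of all features were called (6.07% higher and 6.57% lower). In the fit limited to features above background on every array, 26.4% of features and 10 of 31 members were called. The difference was 1.38 for MSMO1 (SE 0.317, adjusted p = 0.0285), -1.11 for LSS (SE 0.177, adjusted p = 0.0171) and -0.61 for FADS2 (SE 0.105, adjusted p = 0.0185). FADS2 lay above 0 in all UNC0638 replicates and below 0 in both G9a siRNA replicates. IDI1 and SC5D, called in both treatments, differed between them by 0.34 (95% interval 0.07 to 0.62, adjusted p = 0.093) and 0.30 (95% interval -0.29 to 0.89, adjusted p = 0.49). The count of 9 became 15 without UNC0638 replicate 3 (where 28% of all features were called) and 12 without replicate 5 (13.7%). It was 5 without UNC0638 replicate 1 (3.94%) and 2 without replicate 2 (3.18%) or 4 (2.82%). Leaving out any siRNA replicate, which leaves a lone replicate in that group, lowered both the count and the number of features called, most of all without G9a siRNA replicate 2.

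Between G9a siRNA and WIZ siRNA, 3 members were higher under G9a siRNA (IDI1, MSMO1 and FADS1) and 11 lower (MVD, FDPS, LSS, TM7SF2, EBP, DHCR7, INSIG1, SREBF1, SREBF2, SCAP and FADS2), where 19.8% of features were called (8.88% higher and 10.9% lower). In the fit limited to features above background on every array, 36.4% of features and 16 of 31 members were called. The largest differences were -1.51 for LSS (SE 0.211, adjusted p = 0.00794), -1.48 for MVD (SE 0.292, adjusted p = 0.0136) and 1.28 for MSMO1 (SE 0.378, adjusted p = 0.0435). FDPS differed by -0.49 (SE 0.126, adjusted p = 0.0275) and INSIG1 by -0.55 (SE 0.13, adjusted p = 0.0214), although neither was called in a treatment on its own. This contrast also holds the difference between array sets 1 and 2, and between both dye orientations and Cy5 only. In the limma fit with a dye term, 9 of the 14 were called, and FDPS, EBP, SREBF2, SCAP and FADS1 were not. SREBF2 lay at -0.62 (adjusted p = 0.0759) and SCAP at -0.56 (adjusted p = 0.267) in that fit. Without either WIZ siRNA replicate or G9a siRNA replicate 2, which leaves a lone replicate in that group, hardly any feature on the array was called, members included. Over all leave-one-out fits the difference lay between -1.64 and -1.37 for LSS, -1.63 and -1.34 for MVD and 1.03 and 1.52 for MSMO1. Between WIZ siRNA and UNC0638, 0 members were called by limma (3 had an unadjusted p below 0.05), where 0.84% of features were called, and the largest difference was -0.67 for SC5D (95% interval -1.26 to -0.08, adjusted p = 0.378).

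The dye orientation moved with many member values. Under WIZ siRNA, where both replicates were hybridised in both orientations, 9 of 31 members kept their sign across the orientations in replicate 1 and 13 of 31 in replicate 2, and over all features the orientations correlated at -0.483 and -0.357. In UNC0638 replicates 1 and 2 the counts were 22 and 12 of 31, and the correlations 0.0367 and 0.0368 (description over features that share arrays). In the fit over arrays with a dye term, the dye effect of MVK, PMVK, MVD, TM7SF2, SREBF2, SCAP and STARD4 was called, from -0.48 for SCAP to 0.25 for STARD4, as the shift away from the dye-balanced ratio when the treated sample is in Cy5. All G9a siRNA arrays had the treated RNA in Cy5, so a dye effect specific to those arrays cannot be told apart from the knockdown. With the dye term, 10 of 16 members called under G9a siRNA were called (MVD, LSS, MSMO1, HMGCS1, IDI1, SC5D, DHCR7, SREBF1, SCD and FADS2), with MVD at -0.84 and MSMO1 at 1.71, and TM7SF2, SREBF2, SCAP, EBP, SQLE and FADS1 were not. The share of all features called under G9a siRNA was 15.3% in that fit and 33.2% in the main fit. Under UNC0638 IDI1 was called with the dye term at 0.30 (adjusted p = 0.0192), whereas SC5D lay at 0.44 (adjusted p = 0.0593) and STARD4 at 0.19 (adjusted p = 0.203).

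**Figure D3:**
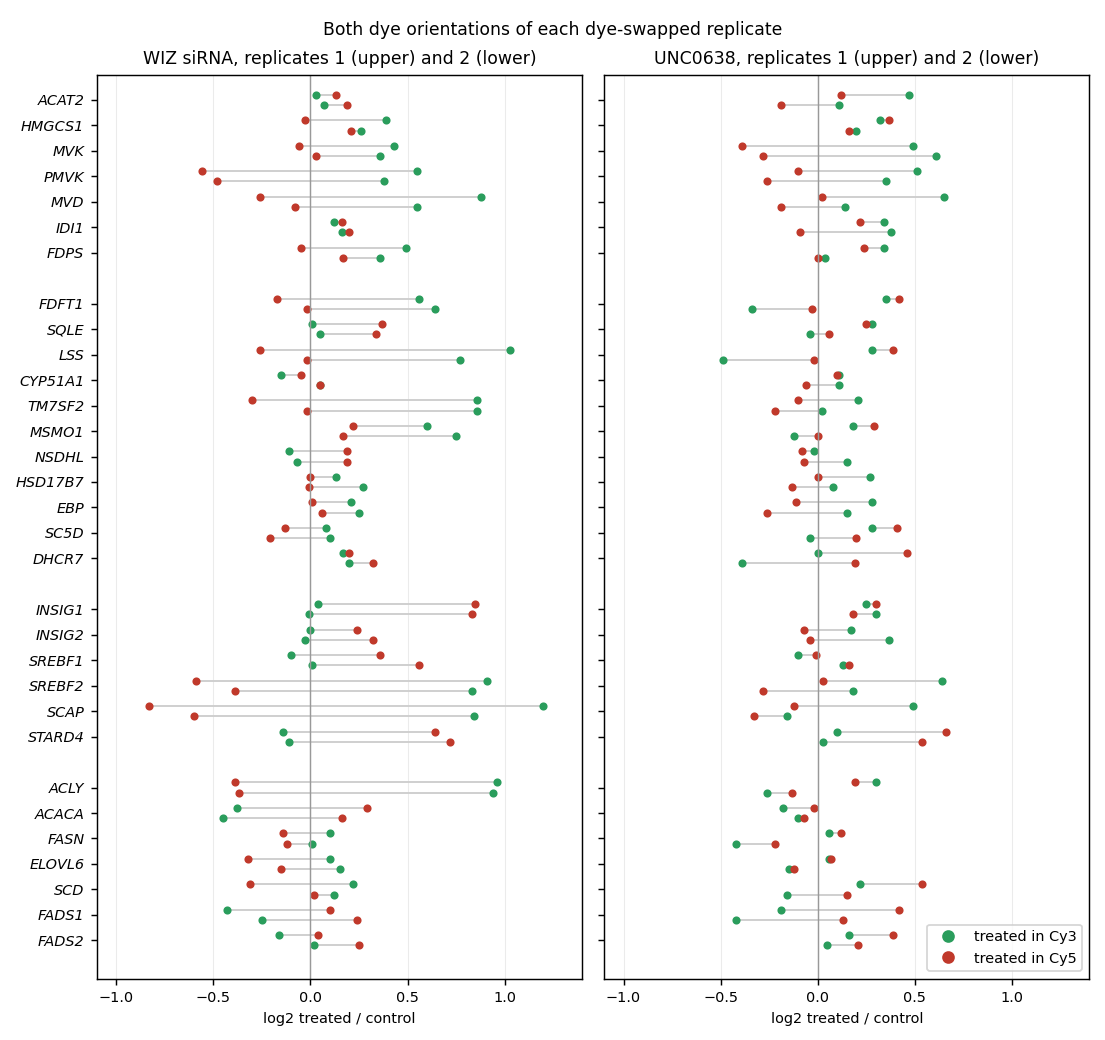
Log2 ratio of treated over control RNA for the 31 members on the dye-swapped arrays of WIZ siRNA and of UNC0638, with replicate 1 drawn above replicate 2 for each gene. Green marks a treated RNA in Cy3 and red a treated RNA in Cy5. Under WIZ siRNA SCAP lies at 1.20 and 0.84 in green and -0.83 and -0.60 in red, whereas IDI1 lies between 0.12 and 0.20 in both.

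The base composition of the probes also moved with the values under G9a siRNA and in UNC0638 replicate 3. Of the 31 members, 25 (80.6%) had a probe sequence in the files. Over the 3475 features with the lowest probe GC content (16.7% to 36.7%) the median under G9a siRNA was 0.231 and 39.3% were called higher, and over the 2314 features with the highest (53.3% to 85%) the median was -0.389 and 53.8% were called lower. Among the members, 10 belonged to the first class (5 called higher and 2 lower) and 5 to the second (0 higher and 3 lower). By replicate, the medians of these classes were 0.195 and -0.335 in G9a siRNA replicate 1, 0.265 and -0.453 in G9a siRNA replicate 2, and 0.194 and -0.238 in UNC0638 replicate 3, and the other replicates lay between -0.114 and 0.0913. MSMO1, IDI1, SQLE and SC5D had probes of 35% GC, and MVD, SREBF2 and SCAP had probes of 55%. After removal of the GC trend from each array, 6 of the 25 members were called higher and 10 lower under G9a siRNA. Of the 13976 features with a probe sequence, 45% were called in that setting. MSMO1 lay at 1.42, MVD at -0.80, LSS at -1.06, SREBF2 at -0.47, SCAP at -0.48 and FADS2 at -0.69. SQLE lay at -0.03 and EBP at -0.03, neither called, whereas FDPS at -0.28 and STARD4 at -0.30 were called lower. Under UNC0638 STARD4 lay at 0.19 in that setting and was not called.

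**Figure D4:**
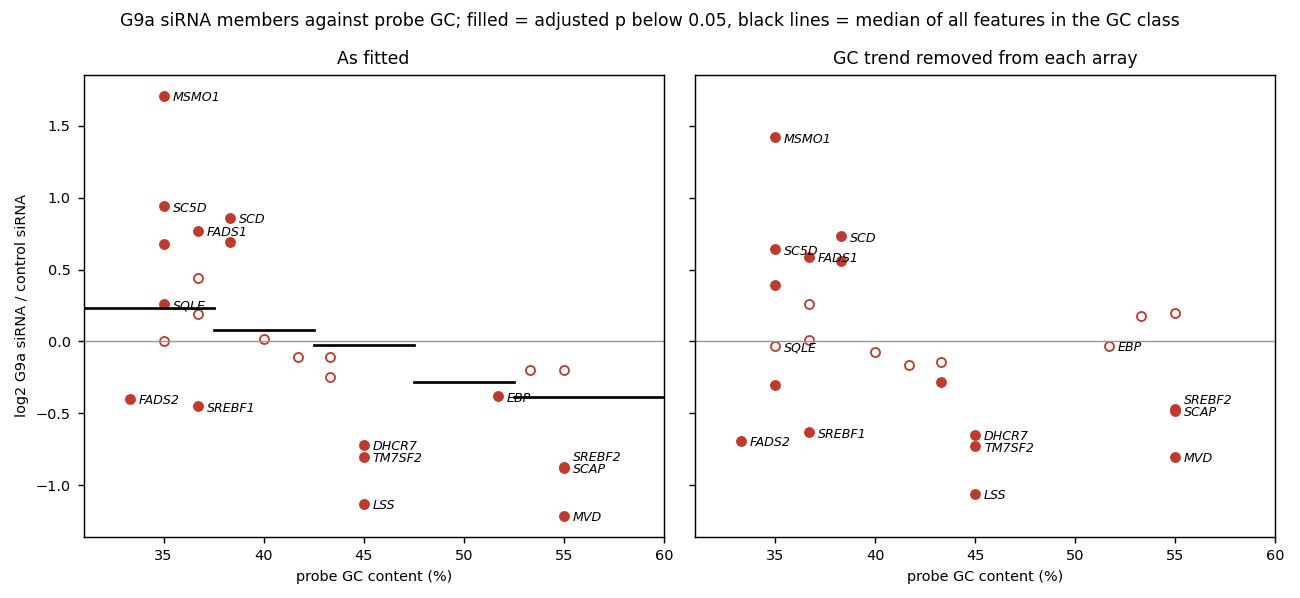
Mean log2 ratio under G9a siRNA against the GC content of the probe for the 25 members with a probe sequence, as fitted (left) and after removal of the GC trend over all features (right). Filled points have an adjusted p below 0.05, and black lines on the left are medians of all features per GC class, from 0.231 in the lowest class to -0.389 in the highest. MSMO1 stays the highest point at 1.71 and 1.42.

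The UNC0638 replicates differed among themselves over the members. Replicate 3 had the sign of the G9a siRNA mean in 15 of the 16 members called there, against 8, 11, 10 and 11 in replicates 1, 2, 4 and 5. Over all features replicate 3 correlated with G9a siRNA replicates 1 and 2 at 0.876 and 0.843, and with UNC0638 replicate 4 at 0.663 (descriptions over features that share a dye orientation and an array set). By the labels its control was solvent and theirs was siRNA. These replicates shared the GC trend given above, whose part in this likeness was not tested. In set 1 alone (UNC0638 replicates 1 and 2) the values were 0.21 for IDI1 (adjusted p = 0.452), 0.21 for SC5D (adjusted p = 0.664) and 0.33 for STARD4 (adjusted p = 0.0346), and in set 2 alone (replicates 3 to 5) they were 0.42 (adjusted p = 0.031), 0.92 (adjusted p = 0.012) and 0.23 (adjusted p = 0.0937). With the array set as a block they were 0.32, 0.57 and 0.28, all called. All 3 calls were lost without UNC0638 replicate 1 or 5 or either WIZ siRNA replicate. Without UNC0638 replicate 3 or 4 STARD4 alone of the 3 was called, without UNC0638 replicate 2 STARD4 was lost (0.27, adjusted p = 0.0588), and without either G9a siRNA replicate SC5D was lost (0.64, adjusted p = 0.0567). Over all settings and leave-one-out fits the adjusted p ranged from 0.00772 to 0.452 for IDI1, 0.0103 to 0.664 for SC5D and 0.0128 to 0.203 for STARD4.

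Genes of neighbouring lipid pathways, 85 in 6 lists, showed changes of both signs under G9a siRNA, with 19 higher and 26 lower, beside 15% higher and 18.2% lower over all features. In the fit limited to features above background on every array, 52.9% of features were called, and the 85 were not counted there. Among 12 other sterol and isoprenoid genes 3 rose and 4 fell, led by POR, the electron donor of the sterol demethylase (-1.07, SE 0.161), ERG28 (-0.70) and the polyprenyl synthase subunit PDSS2 (0.66). Among 12 genes of SREBP processing 3 rose and none fell, which were PAQR3 (1.18, SE 0.238), the vesicle coat gene SEC23A (1.06, SE 0.174) and RNF139 (0.29). Among 14 genes of sterol efflux, storage and trafficking 2 rose and 5 fell, led by the liver X receptor gene NR1H2 (-0.97, SE 0.133), the exporter ABCA1 (0.74) and STARD3 (-0.60).

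On the fatty acid side, 5 of 20 other synthesis genes rose and 5 fell, led by the elongase ELOVL4 (1.16, SE 0.197), the mitochondrial transferase MCAT (-0.95, SE 0.131) and the reductase TECR (-0.93, SE 0.129). Among 12 genes of lipid activation and glycerolipid synthesis 4 rose and 4 fell, led by the acyl-CoA synthetases ACSL3 (1.04, SE 0.241) and ACSL4 (0.73) and the acyltransferase DGAT1 (-0.87). Of 15 genes of fatty acid oxidation 2 rose and 8 fell, led by CPT2, an acyltransferase of the carnitine shuttle (-1.44, SE 0.236), and the dehydrogenases ACADM (0.75) and ACADS (-0.72). Under UNC0638, where 1.9% of all features were called lower and 1.75% higher, 3 of the 85 fell and none rose, a share near that background. They were CYB5B (-0.37, adjusted p = 0.0292), the desaturase SCD5 (-0.42, adjusted p = 0.00733) and AGPAT2 (-0.40, adjusted p = 0.0372). Under WIZ siRNA 0 of the 85 were called by limma, and 13 had an unadjusted p below 0.05.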

How the data were processed

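Uncorrected spot and background intensities were used as deposited by the authors. A log2 ratio per array, which the authors had background-subtracted and normalized per the file headers, served as an alternative. The deposited series table of log10 ratios gave control over treated on the 8 set 1 arrays (r -0.877 to -0.918 with each array's log2 ratio) and treated over control on the other 5 (0.925 to 0.971) and was turned accordingly. Its column medians ran from -0.01 to 0.00818, and its centring and filter are unknown.

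With limma 3.58.1 in R 4.3.3, background was corrected by normexp (offset 50) over 62976 spots and ratios by loess (4259 control spots at weight 0), spots of a probe were averaged, ratios were turned to treated over control, and dye-swapped pairs averaged. Above background means over the background median by 2.6 background SDs, and probes met this on at least 50% of the arrays of a group. The brightest probe per gene gave 28939 features. Symbols are those of the files, with listed older symbols (C14orf1 for ERG28) matched to current ones. Treatment means and contrasts over 9 replicates were fitted with lmFit and eBayes (6 residual and 3.33 prior degrees of freedom), with Benjamini-Hochberg over all features. Precision is limited by the number of arrays.

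The members and lists were chosen with earlier results of these data known. Array values are given for members called in any treatment or contrast and for the first and last gene of each branch, the others by mean or range. Of the other lists, called genes are named, the 3 largest where there were more. Other settings were the authors' ratios, no background subtraction, between-array scaling, filters, probe means, a dye term, GC removal, treatments alone, array set and leaving out replicates. The fit was checked on simulated data with the same spread in all treatments and no dye or GC effect. The check therefore does not cover unequal spread, dye or GC effects. Scanner software and slide are not given in the sources used here.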

Additional observations from a re-analysis of the deposited data

How the results depend on the processing

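Of the 16 members called under G9a siRNA, 10 were called in each of the 10 settings other than leaving out a replicate (HMGCS1, MVD, IDI1, LSS, MSMO1, SC5D, DHCR7, SREBF1, SCD and FADS2). The same held for 0 of 3 under UNC0638, 2 of 9 for G9a siRNA minus UNC0638 (LSS and FADS2) and 4 of 14 for G9a siRNA minus WIZ siRNA (MVD, LSS, TM7SF2 and DHCR7). With the authors' log2 ratio the counts of members called were 0 under UNC0638 (where 1.88% of all features were called), 3 for G9a siRNA minus UNC0638 (5.39%) and 6 for G9a siRNA minus WIZ siRNA (11.8%). After scaling between arrays the last 2 were 2 (where 2.8% of all features were called) and 8 (8.71%). With the dye term the counts were 1 under UNC0638 (where 4.51% of all features were called), 1 under WIZ siRNA (3.34%), 10 under G9a siRNA (15.3%), 5 for G9a siRNA minus UNC0638 (9.28%) and 9 for G9a siRNA minus WIZ siRNA (13.5%). With each treatment fitted alone they were 0 under UNC0638 and 17 under WIZ siRNA (where 23.7% of all features were called), and with UNC0638 in array set 1 alone 1. SQLE under G9a siRNA turned to -0.03 with the GC trend removed. The cause of these changes was not tested. Leaving out each replicate gave 0 to 2 members under UNC0638, 0 to 1 under WIZ siRNA, 0 to 20 under G9a siRNA, 0 to 0 for WIZ siRNA minus UNC0638, 0 to 15 for G9a siRNA minus UNC0638 and 0 to 18 for G9a siRNA minus WIZ siRNA. The 0 under G9a siRNA came without its replicate 2.

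Deviations of same-numbered replicates correlated at 0.00448 (UNC0638 and WIZ siRNA), 0.106 (UNC0638 and G9a siRNA) and -0.0309 (WIZ siRNA and G9a siRNA), so the numbers were not taken as pairs. In replicates 1 and 2 with the replicate block, 0 members were called for WIZ siRNA minus UNC0638, 22 for G9a siRNA minus UNC0638 (where 36.7% of all features were called) and 20 for G9a siRNA minus WIZ siRNA (39.1%). In the same replicates without the block, a setting added after seeing the data, the counts were 0, 22 and 22, with 36.6% and 39.1% of all features called in the last 2. No gap between replicates stood out by Dixon's test in the 5 UNC0638 replicates of any of the 31 members. Since all 31 members were above background on every array in both channels, no member value is a bound set by dim signal.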
